A study of Mus musculus with 15 samples.

Results

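The genes described here are 10 neuropeptide receptor genes, Galr1, Hcrtr1, Hcrtr2, Trhr, Npy1r, Oxtr, Crhr1, Sstr1, Sstr2 and Tacr1, taken by symbol from a fixed list, and all 10 were among the 25080 genes listed in every library. Their transcripts were measured by RNA sequencing of microdissected mouse thalamus, and the deposited values are TPM, abundances per unit of transcript length that share 1 total per library. The 14 libraries comprised 4 from control and 4 from cKO mice after saline, and 4 from control and 2 from cKO mice after cocaine, while a 15th sample, labelled cKO cocaine, was not analysed here. By the study's animal methods and a figure legend, control mice were floxed (Maged1 loxP) littermates with no Cre named. The sample titles and the transcriptome methods call them WT instead. The cKO mice were Vglut2-Cre::Maged1 loxP, so that recombination was limited to cells that express the Vglut2 driver and other cells of the tissue kept Maged1. All were males of 2 to 4 months on a C57Bl6J background, habituated with saline for 3 days and then injected for 5 days with either cocaine (20 mg/kg) or saline. By the animal methods, but not by the WT titles, both genotypes were hemizygous for the X-linked floxed allele.

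Neuropeptides are released from dense-core vesicles and act, often at a distance, on G protein-coupled receptors that change excitability over seconds to minutes. Galr1, Npy1r, Sstr1 and Sstr2 bind galanin, neuropeptide Y and somatostatin and couple mainly to inhibitory Gi/o proteins. Hcrtr1 and Hcrtr2 (the orexin receptors), Trhr (thyrotropin-releasing hormone), Oxtr (oxytocin) and Tacr1 (substance P) couple largely to Gq, and Crhr1, the corticotropin-releasing factor receptor, couples to Gs. In the thalamus such receptors are known above all from the midline nuclei, which receive dense orexin and other peptidergic fibres, whereas most of the peptides are made in the hypothalamus and other neighbouring territories.

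Maged1, the targeted gene (ENSMUSG00000025151.16, chromosome X of GRCm38, 94535474 to 94542143, minus strand), was read in each library before the receptors. After dividing TPM by a trimmed-mean (TMM) factor per library, which is the scale of every level given here, it was at 150 to 167 in the control saline libraries and at 64.6 to 77.4 in the cKO saline libraries. In the cocaine libraries the levels went against the labels, with 58.5 to 87.7 where the label was control cocaine (4 libraries) but 154 and 174 where it was cKO cocaine. Every comparison that uses cocaine libraries rests on these libraries and therefore on their labels, and the saline comparison does not. For 4 of the 8 saline libraries the genotype tag named the other genotype than the title, and the titles were followed. Maged1 in those 4 went with the titles. It was at 150 and 151 in control saline replicates 3 and 4, and at 77.4 and 76.6 in cKO saline replicates 1 and 2. The TMM factors were 0.807 to 0.939 in cocaine and 1.07 to 1.22 in saline libraries, and 2 abundant genes, Bc1 and Gm20594, held 23.4 to 31.1% of the listed TPM in cocaine and 6.71 to 8.86% in saline libraries. Markers of thalamic neurons (Slc17a6, Tcf7l2, Lef1, Gbx2, Prkcd and Rora) summed to 298 to 561 in all 14 libraries, as the tissue label says, and markers of the habenula and hypothalamus were also present.

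The receptors were transcripts of low level. In the control saline libraries the highest was Npy1r at 4.52 ± 0.481 (SD, n = 4), then Sstr1 at 3.41 ± 0.542, Sstr2 at 3.05 ± 0.488, Galr1 at 2.45 ± 0.416 and Tacr1 at 1.77 ± 0.215. Crhr1 followed at 1.57 ± 0.320, Hcrtr2 at 1.16 ± 0.313, Hcrtr1 at 1.07 ± 0.436, Oxtr at 0.746 ± 0.175 and Trhr at 0.706 ± 0.197 (SD, n = 4 each). Of the 9 neighbouring pairs in this order, only Galr1 and Tacr1 had ranges over the 4 libraries that did not overlap, and the ranges of the other 8 pairs did. Within single libraries, Sstr2 was nevertheless above Galr1 and Oxtr above Trhr in 4 of 4. Over all 14 libraries Npy1r reached the 66.1st percentile of listed genes by mean level and Trhr the 43.7th. The receptors with Gi/o coupling thus held the upper places and those with Gq coupling, apart from Tacr1, the lowest.

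**Figure D1:**
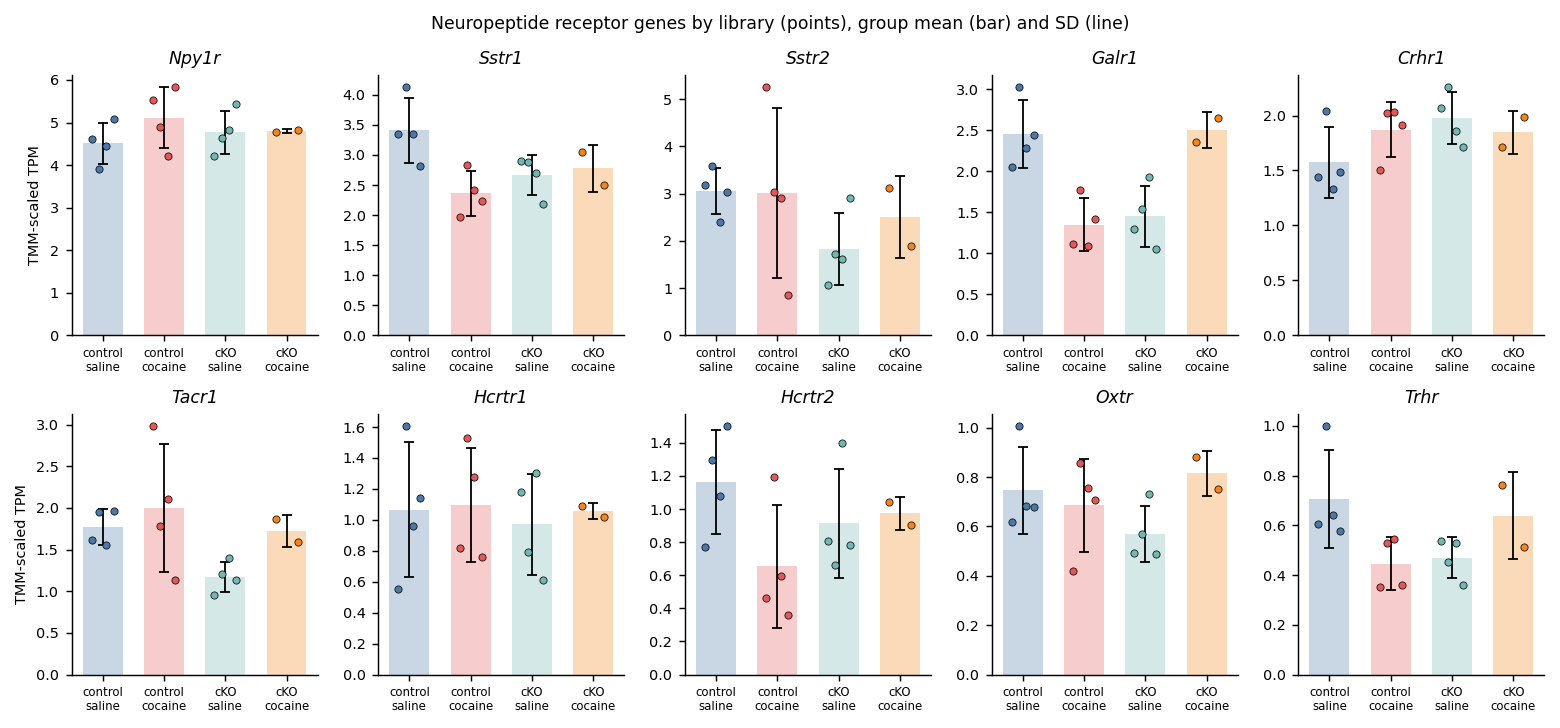
TMM-scaled TPM (vertical axis, linear from 0) of the 10 receptor genes in the 4 groups, ordered by mean level over 14 libraries. Points are libraries, bars group means and lines the SD (n = 4, 4, 4 and 2). Galr1 is lower in the libraries labelled control cocaine (1.09 to 1.77) than in control saline (2.05 to 3.03), and Sstr2 has the widest spread (0.855 to 5.26).

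In these libraries Npy1r varied least, 1.49-fold between the lowest (3.91) and the highest library (5.83), and Sstr2 varied most, 6.15-fold. Hcrtr2 varied 4.17-fold, Tacr1 3.14-fold, Hcrtr1 2.91-fold and Galr1 2.89-fold. Whether a lower level means fewer cells that express a receptor or less RNA in each cell cannot be told apart in bulk tissue. A gene had to reach 1 TPM in 3 or more libraries to be tested, which 13471 genes did, 8 receptors among them. The limma test was run on log2(scaled TPM + 0.5), which makes fold changes of such low transcripts smaller than they are. Trhr and Oxtr reached 1 TPM in 1 library each and did not pass. Calls required both an adjusted p-value (Benjamini-Hochberg, over all tested genes) under 0.05 and a log2 fold change of 0.5 or more in either direction.

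Galr1, the inhibitory galanin receptor (ENSMUSG00000024553.8, chromosome 18, minus strand), was the only tested receptor called with these settings. It was at 2.05, 3.03, 2.28 and 2.44 scaled TPM in control saline replicates 1 to 4 and at 1.11, 1.77, 1.09 and 1.42 after cocaine in the control-labelled libraries. In cKO saline it was at 1.29, 1.53, 1.92 and 1.05, and at 2.35 and 2.65 where the label was cKO cocaine. Control saline and labelled cKO cocaine libraries were high and the other 2 groups low, with no overlap between a high and a low group.

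In the control-labelled libraries cocaine was accompanied by a fall of Galr1 from 2.45 ± 0.416 to 1.35 ± 0.319 (SD, n = 4 each), which is -0.68 on the log2 scale (SE 0.15, 95% interval -1.01 to -0.35, limma adjusted p = 0.00721). Galr1 was the only 1 of the 8 tested receptors called, where 3.08% of all tested genes were called, and 1 of 8 had groups that did not overlap, against 25.2% of all genes. At an unadjusted p under 0.05 there were 3 of 8 receptors (Galr1, Hcrtr2 and Sstr1), against 37.1% of all genes. The median log2 fold change of the 8 receptors was -0.07, with 4 positive and 4 negative values, beside 0 over all genes. The share of receptors past either weaker criterion was near or below that of all genes. The Galr1 call was lost with the genotype tags in place of the titles (-0.39, adjusted p = 0.27) and with only the libraries whose title and tag agree (-0.71, adjusted p = 0.0849).

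In the cKO-labelled libraries the difference had the other sign. Galr1 rose from 1.45 ± 0.374 (SD, n = 4) to 2.50 ± 0.215 (SD, n = 2), a log2 fold change of 0.64 (SE 0.19, 95% interval 0.23 to 1.05, limma adjusted p = 0.0305). It was again the 1 receptor of 8 called, against 3.14% of all genes, and the 1 of 8 with an unadjusted p under 0.05, against 34% of all genes. Galr1 and Tacr1, 2 of 8, had groups that did not overlap, against 43.8% of all genes, in a comparison where 1 group holds 2 libraries. The median over the receptors was 0.10 with 7 of 8 values positive, beside 0.01 over all genes. This call rested on single libraries, since the adjusted p rose to 0.0783 and 0.201 without cKO cocaine replicate 1 or 2 and to 0.0648 and 0.0632 without cKO saline replicate 1 or 4. It was also lost with TPM as deposited (0.33, adjusted p = 0.186), with only the 2 groups compared in the fit (0.64, adjusted p = 0.0586), with the genotype tags (0.35, adjusted p = 0.453) and with agreeing labels only (0.61, adjusted p = 0.179).

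The difference between the 2 cocaine effects was tested as the interaction. For Galr1 it was 1.32 on the log2 scale (SE 0.24, 95% interval 0.80 to 1.85, limma adjusted p = 0.0278), and Galr1 was the 1 receptor of 8 called, against 0.802% of all genes. Sstr1 was the other receptor with an unadjusted p under 0.05 (0.50, SE 0.19, adjusted p = 0.184), which gives 2 of 8 against 18.1% of all genes. The receptors' median was 0.41, with 6 of 8 positive, beside -0.01 over all genes. The Galr1 interaction call was lost without control saline replicate 2 (adjusted p = 0.0586) or 4 (0.0533), cKO cocaine replicate 1 (0.092) or 2 (0.0929) or cKO saline replicate 1 (0.0637), and with TPM as deposited (1.29, 0.0754). It was lost too with the genotype tags (0.74, 0.786), with agreeing labels only (1.33, 0.242) and with a replicate block (1.29, 0.0601). Because Maged1 went against the genotype label in all 6 cocaine libraries, the signs, sizes and calls of these differences hold only for the labels as given. The mean of Galr1 was 2.50 in labelled cKO cocaine, beside 2.45 in control saline, and 1.35 in labelled control cocaine, beside 1.45 in cKO saline.

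Between control and cKO labels the Galr1 difference was negative after saline and positive after cocaine, without a call in either, and the sign after cocaine depends on labels that Maged1 goes against. After saline Galr1 was lower in all 4 libraries titled cKO than in all 4 titled control (-0.61, SE 0.15, 95% interval -0.94 to -0.28, limma adjusted p = 0.0975). With the genotype tags in place of the titles this difference was -0.02, so that it depends on which label is followed. In the saline libraries whose tag and title disagree, Maged1 went with the titles. None of the 8 receptors was called in the saline comparison by limma, where 0.052% of all genes were. Galr1, Tacr1, Sstr1 and Crhr1, 4 of 8, had an unadjusted p under 0.05, against 16.7% of all genes, and Galr1 and Tacr1, 2 of 8, did not overlap, against 12.6%. The receptors' median was -0.27, with 6 of 8 negative, beside 0 over all genes. This comparison shares the control saline libraries with the first one, so that the low Galr1 values in both are set against the same 4 mice.

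After cocaine Galr1 was higher in both libraries labelled cKO than in the 4 labelled control (0.71, SE 0.19, 95% interval 0.31 to 1.12, limma adjusted p = 0.222). It was the 1 of 8 receptors with an unadjusted p under 0.05, against 11.9% of all genes, and the 1 without overlap, against 17.5%. None of the 8 was called by limma, against 0.0371% of all genes, and the median over the receptors was -0.01, beside 0 over all genes.

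**Figure D2:**
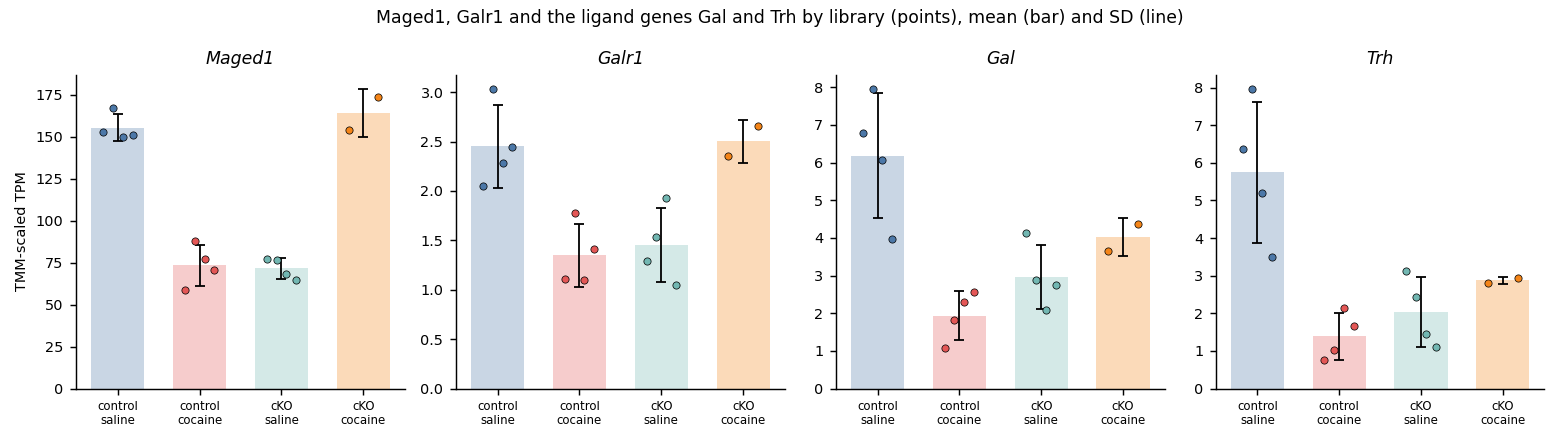
TMM-scaled TPM (vertical axes, linear from 0) of Maged1, Galr1 and the ligand genes Gal and Trh in the 4 groups. Points are libraries, bars means and lines the SD (n = 4, 4, 4 and 2). Maged1 is low in cKO saline and labelled control cocaine, and so is Galr1.

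The other members with Gi/o coupling gave smaller differences. Sstr1, a somatostatin receptor (ENSMUSG00000035431.4, chromosome 12, 58211772 to 58214444, plus strand), was at 3.36, 4.13, 3.34 and 2.82 in control saline and at 1.96, 2.84, 2.41 and 2.23 in labelled control cocaine. In cKO saline it was at 2.90, 2.88, 2.70 and 2.19, and in labelled cKO cocaine at 3.05 and 2.50. The control groups overlapped only by the lowest saline and the highest cocaine library. The log2 difference in the control-labelled libraries was -0.45 (SE 0.12, limma adjusted p = 0.0165), past the p threshold but under the fold change minimum. It was called with a pseudocount of 0.1 (-0.51), with TPM as deposited (-0.76), with agreeing labels only (-0.58) and without control saline replicate 4 or control cocaine replicate 2 (-0.53 each). With TPM as deposited the median over all genes was itself -0.335. The cKO-labelled difference was 0.05 (SE 0.15, adjusted p = 0.844) and that between genotypes after saline -0.30 (SE 0.12, adjusted p = 0.233).

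Npy1r, the most abundant receptor (ENSMUSG00000036437.6, chromosome 8, 66697192 to 66706792, plus strand), was at 3.91 to 5.08 in control saline, 4.22 to 5.42 in cKO saline, 4.20 to 5.83 in labelled control cocaine, and at 4.77 and 4.83 in labelled cKO cocaine. All groups overlapped. Its 4 log2 differences lay between -0.07 and 0.16, and the 95% intervals, from -0.34 to 0.37 over the 4 comparisons, stayed within the fold change minimum of 0.5 in either direction.

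Sstr2, the second somatostatin receptor (ENSMUSG00000047904.6, chromosome 11, 113619342 to 113626028, plus strand), overlaps Slc39a11 on the other strand. It was at 3.19, 3.58, 2.41 and 3.04 in control saline and at 5.26, 3.04, 2.90 and 0.855 in labelled control cocaine. In cKO saline it was at 1.07, 1.73, 1.61 and 2.90, and in labelled cKO cocaine at 3.11 and 1.89. The highest and the lowest library of the series belonged to the same group, labelled control cocaine, and all groups overlapped. The largest difference, -0.66 between genotypes after saline, had a 95% interval of -1.43 to 0.12 (limma adjusted p = 0.381). The control difference of -0.18 (SE 0.36) became -0.48 and 0.22 when control cocaine replicate 1 or 4 was left out.

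Among the receptors with Gq coupling, Tacr1, which binds substance P (ENSMUSG00000030043.11, chromosome 6, 82402334 to 82560104, plus strand), was at 1.62, 1.95, 1.55 and 1.96 in control saline and at 2.98, 1.78, 2.11 and 1.13 in labelled control cocaine. In cKO saline it was at 0.949, 1.21, 1.39 and 1.13, and in labelled cKO cocaine at 1.86 and 1.59. The cKO saline libraries lay below all control saline and both labelled cKO cocaine libraries. Neither of the differences passed the adjusted threshold, -0.44 between genotypes after saline (SE 0.18, limma adjusted p = 0.245) and 0.42 for cocaine in the cKO-labelled libraries (SE 0.22, adjusted p = 0.21).

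Promoter windows of 300 bases (250 before to 50 after a RefSeq start, GRCm38.p6) were listed for 7 of the 10 receptors, with 3 windows for Hcrtr1 and 1 for each of the other 6, and not for Galr1, Sstr1 or Trhr. Windows were searched on both strands for the cAMP response element TGACGTCA, its half-site TGACG, which the full element contains on each strand, and the GC box GGGCGG. The half-site was in the windows of 3 receptors (Sstr2, Tacr1 and Hcrtr2) and in 20.8% of all 32851 windows, the full element in 1 (Sstr2) and in 1.79%, and the GC box in 3 (Sstr2, Crhr1 and Oxtr) and in 35.7%. The stretches upstream of both the RefSeq and the GENCODE start are shown for Sstr2 and Tacr1, the pair of receptors with the largest correlation of their deviations within groups, with motif matches in capitals.
Sstr2: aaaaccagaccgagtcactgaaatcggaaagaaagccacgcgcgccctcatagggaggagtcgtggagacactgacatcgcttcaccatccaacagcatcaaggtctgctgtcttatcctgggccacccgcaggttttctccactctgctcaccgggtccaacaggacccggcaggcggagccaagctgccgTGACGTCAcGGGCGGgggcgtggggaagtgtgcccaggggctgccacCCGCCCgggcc
Tacr1: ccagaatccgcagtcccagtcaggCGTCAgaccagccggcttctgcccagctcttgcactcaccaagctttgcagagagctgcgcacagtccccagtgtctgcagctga
The first is chr11:113619077-113619326 and the second chr6:82402225-82402333, both on the plus strand of GRCm38. In the Sstr2 stretch of 250 bases, with 18 CpG dinucleotides, the full element begins 58 bases before the RefSeq start and is followed by a GC box at 49 bases, and a second GC box on the reverse strand begins 11 bases before the start. In the Tacr1 stretch of 109 bases, with 4 CpG dinucleotides, a half-site on the reverse strand begins 226 bases before the RefSeq start. A match is a description of letters and not evidence of a bound factor. By CpG count the whole windows of Crhr1 (31) and of Sstr2 (27) lay at the 89.4th and 84.5th percentile of all windows and that of Tacr1 (7) at the 47.9th.

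Hcrtr2, an orexin receptor enriched in midline thalamus and wake-promoting nuclei (ENSMUSG00000032360.16, chromosome 9, 76225880 to 76323856, minus strand, with Gm27234 on the other strand), was at 0.769, 1.30, 1.08 and 1.50 in control saline and at 0.465, 1.19, 0.597 and 0.360 in labelled control cocaine. In cKO saline it was at 0.807, 0.664, 1.40 and 0.781, and in labelled cKO cocaine at 1.04 and 0.903. A single library, labelled control cocaine replicate 2, brought the 2 control groups to overlap. The control difference was -0.56 (SE 0.22, 95% interval -1.03 to -0.08, limma adjusted p = 0.0845), and without that library it was -0.76 and called (adjusted p = 0.018). That library is named here because it overlapped, so the refit is no separate support. With TPM as deposited the difference was called as well (-0.78), where the median over all genes was itself -0.335. Hcrtr2 reached 1 TPM in 5 libraries and passed the filter only through those of control saline, the group where it was high.

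Hcrtr1, the other orexin receptor (ENSMUSG00000028778.15, chromosome 4, 130130217 to 130139359, minus strand), spread from 0.552 to 1.61 within control saline alone, as wide as over all 14 libraries. Its 4 log2 differences lay between -0.07 and 0.11 with adjusted p-values from 0.818 to 0.996. Crhr1 (ENSMUSG00000018634.10, chromosome 11, 104132855 to 104175523, plus strand) was at 1.33 to 2.04 in control saline, 1.72 to 2.26 in cKO saline, 1.50 to 2.03 in labelled control cocaine, and at 1.71 and 1.98 in labelled cKO cocaine. Its largest difference was 0.26 between genotypes after saline (SE 0.12, limma adjusted p = 0.28), the opposite sign to Galr1 in that comparison.

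**Figure D3:**
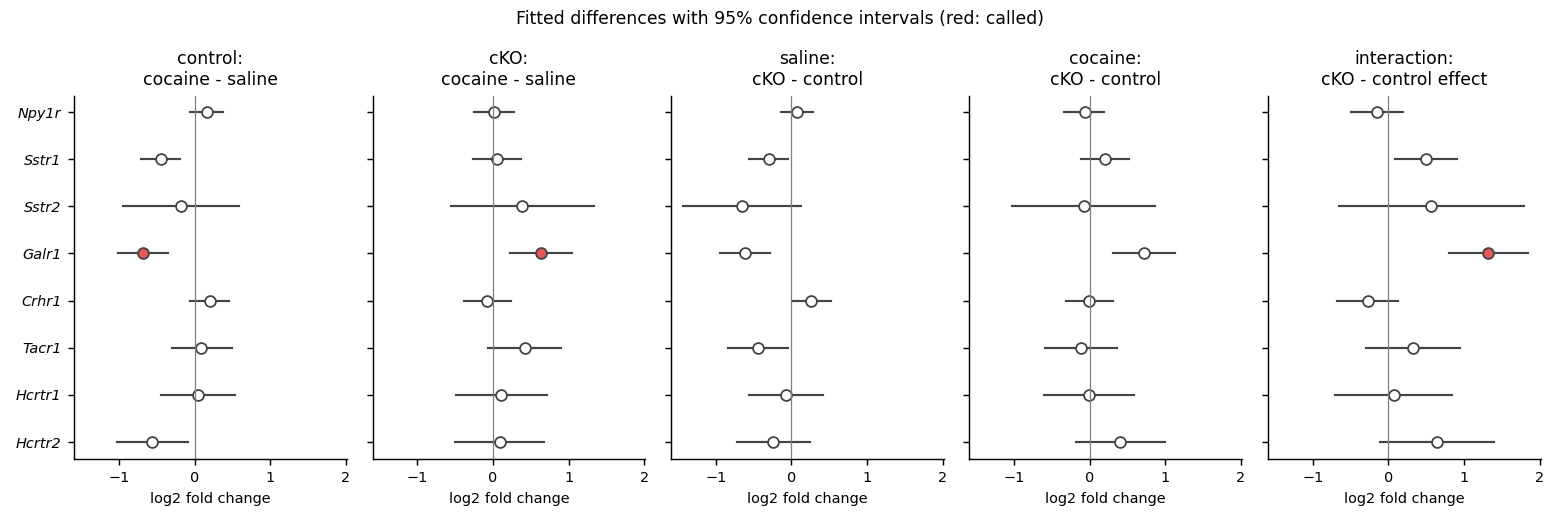
Fitted log2 fold changes (horizontal axis) of the 8 tested receptors in the 4 comparisons and the interaction. Circles are estimates, lines 95% confidence intervals, and red circles are called. Galr1 is called for cocaine in the control-labelled (-0.68) and the cKO-labelled libraries (0.64) and for the interaction (1.32), all by labels that Maged1 goes against in the cocaine libraries, and Sstr2 has the widest intervals.

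The 2 receptors below the filter were compared by two-sided permutation tests, which were exact, on log2(scaled TPM + 0.5), 8 tests in all. Trhr (ENSMUSG00000038760.14, chromosome 15, 44196135 to 44235912, plus strand) was at 0.606, 0.999, 0.642 and 0.578 in control saline and at 0.351, 0.530, 0.544 and 0.361 in labelled control cocaine. In cKO saline it was at 0.538, 0.454, 0.530 and 0.359, and in labelled cKO cocaine at 0.762 and 0.514. All control saline libraries lay above all libraries of the next 2 groups, by -0.34 for cocaine in the control-labelled libraries and by -0.31 for cKO after saline on the log2 scale. Each gave an exact permutation p = 0.0286, the smallest that 4 against 4 allows, and 0.114 after Benjamini-Hochberg adjustment over the 8 tests. Oxtr (ENSMUSG00000049112.9, chromosome 6, 112473683 to 112489943, minus strand) was at 0.418 to 1.01 over all libraries, with exact permutation p-values from 0.114 to 0.686. For comparisons with 2 libraries the smallest p possible is 0.133.

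The ligand genes of these receptors were followed as a list of 11, of which 8 passed the filter (Crh, Cort and Tac4 did not). In the control-labelled libraries 3 of 8 fell with cocaine by limma, Gal, Trh and Oxt, against 3.08% of all genes called in either direction, and none rose. The list's median was -0.68 beside 0 over all genes. Gal, which encodes galanin, was at 6.78, 7.94, 6.06 and 3.97 in control saline and at 1.08, 1.82, 2.29 and 2.56 in labelled control cocaine (-1.46, SE 0.24, adjusted p = 0.00117). In cKO saline Gal was at 4.13, 2.87, 2.08 and 2.75, and in labelled cKO cocaine at 3.66 and 4.37, a difference of 0.41 that was not called (adjusted p = 0.342). In the interaction 3 of 8 ligands were called, all positive, against 0.802% of all genes called in either direction. The Gal interaction was 1.88 (SE 0.37, limma adjusted p = 0.0392), the same sign as that of its receptor Galr1.

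Trh, for thyrotropin-releasing hormone, fell from 5.75 to 1.39 scaled TPM on average in the control-labelled libraries (-1.73, SE 0.30, limma adjusted p = 0.00162), and its interaction was 2.22 (SE 0.47, adjusted p = 0.0452). Oxt, for oxytocin, was at 101, 180, 182 and 87.7 in control saline, listed at 0 in 3 and at 0.233 in 1 of the 4 libraries labelled control cocaine, and at 0.578 to 24.4 in cKO saline. It was called lower in both comparisons with control saline (limma adjusted p = 6.07e-05 and 0.0177). Between genotypes after saline it was the 1 of 8 ligands called, against 0.052% of all genes. Ucn, for urocortin, a ligand of Crhr1, was called higher in labelled cKO cocaine, at 3.66 and 3.94 against 0 to 0.335 in cKO saline (adjusted p = 0.021), while 1 control saline library had 5.78 and the other 3 at most 0.112. Ucn was the 1 of 8 ligands called for cocaine in the cKO-labelled libraries, against 3.14% of all genes. Only both labelled cKO cocaine libraries and that control saline library reached 1 TPM. Ucn therefore passed the filter through the group in which it was called, and the call is only a description. Sst, Npy, Hcrt and Tac1 gave no call in any comparison. Hcrt, for the orexin precursor, is made by hypothalamic cells and varied widely within groups, with an SE of 1.74 for the control difference.

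Other neuropeptide receptors were followed as a list of 49, of which 21 passed the filter. In the control-labelled libraries 1 of 21 was called, against 3.08% of all genes, and it was lower, Npy2r (1.60 to 0.905 scaled TPM on average, -0.60, SE 0.19, limma adjusted p = 0.0338), with a list median of -0.20 and 15 of 21 negative, beside 0 over all genes. In the cKO-labelled libraries 1 of 21 was called, against 3.14% of all genes, and it was higher, Nmbr, the neuromedin B receptor (1.14 to 2.90, 1.08, SE 0.27, adjusted p = 0.0155), with a list median of 0.05 beside 0.01. For the interaction 1 of 21 was called positive, Nmbr (1.60, limma adjusted p = 0.0479), against 0.802% of all genes called in either direction. Sstr3, the third somatostatin receptor measured, was called negative (-0.56, SE 0.12, limma adjusted p = 0.0452). Over all genes 66 interaction calls were positive and 42 negative, but 19 and 8 with a replicate block. None of the 21 was called by limma between genotypes, where 0.052% of all genes were after saline and 0.0371% after cocaine. At an unadjusted p under 0.05 there were 5 of 21 after saline, against 16.7% of all genes, and 4 of 21 after cocaine, against 11.9%.

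All 21 genes on a list of G protein signalling partners, among them G alpha subunits, phospholipases, arrestins, receptor kinases and Rgs proteins, were tested. The list also holds Crhbp, which encodes a corticotropin-releasing factor binding protein and not a G protein partner. Only Rgs4, which shortens Gi and Gq signals, was called, lower in labelled cKO cocaine than in cKO saline (59.2 against 83.5, -0.50, SE 0.16, limma adjusted p = 0.0433) and in the interaction (-0.93, SE 0.21, adjusted p = 0.0489). Of all genes 3.14% and 0.802% were called in these comparisons. In the control-labelled libraries none of the 21 was called by limma, against 3.08% of all genes. There 13 of 21 had an unadjusted p under 0.05, against 37.1% of all genes, and the median was 0.11, beside 0 over all genes.

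Markers of several territories next to the thalamus shared a sign in the comparisons with control saline, mostly without calls, while other lists went another way. The 10 hypothalamic markers (Avp, Pmch, Agrp, Pomc, Otp, Sim1, Nkx2-1, Fezf1, Hmx2 and Hmx3) summed to 38.9 to 187 scaled TPM in control and 7.53 to 112 in cKO mice after saline, and to 3.04 to 102 in labelled control and 17.3 to 21.6 in labelled cKO cocaine. All 5 that passed the filter were lower in labelled control cocaine (median -1.65, 2 called) and in cKO saline (median -1.27, 0 called) than in control saline, the 2 comparisons in which Galr1, Trhr, Gal and Trh were lower. In the cKO-labelled libraries 2 of the 5 were higher after cocaine (median -0.19, 0 called), while Galr1 rose. The 6 habenular markers (Pou4f1, Gpr151, Tac2, Nwd2, Chrnb4 and Chrna3) were all lower in cKO saline than in control saline (median -1.26, 0 called), and all higher in labelled cKO cocaine than in cKO saline (median 0.80, 0 called). All 6 were also lower in labelled control cocaine than in control saline (median -0.39, 0 called). The 4 ependymal markers had the same signs in these comparisons, with medians of -0.79 (0 called), 0.98 (1 called) and -0.63 (0 called). Both choroid plexus markers that passed the filter, of 4 listed, were lower in labelled control cocaine and in cKO saline than in control saline (medians -2.05 and -2.10, 0 called). The list summed to 1447 scaled TPM in control saline replicate 1 alone, and to 13.4 to 54.7 in the other control saline libraries. Those overlapped labelled control cocaine (4.08 to 21.2) and cKO saline (2.50 to 42.0), so the medians rest largely on 1 library. The 6 thalamic neuron markers summed to 298 to 423 scaled TPM in control saline and 406 to 561 in labelled control cocaine, where 4 of 6 were higher (median 0.26, 2 called), and 4 of 6 were higher in labelled cKO cocaine than in cKO saline (median 0.20, 1 called). After saline, 3 of 6 were higher in cKO (median 0.07, 0 called). Of 5 markers of the reticular thalamus and zona incerta, 1 was higher in labelled control cocaine (median -0.37) and 4 in cKO saline (median 0.27) than in control saline. All 3 oligodendrocyte markers were higher in both (medians 0.26 and 0.47). In cKO saline 2 of 4 tested striatal markers (median 0.10) and 3 of 3 tested cortical and hippocampal markers (median 0.26) were higher. These lists held 0 calls in these comparisons. None of the marker genes of the hypothalamic, habenular, ependymal and choroid plexus lists was below 0.1 TPM in every library. The part of these marker lists in the receptor differences between groups was not tested.

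Within groups the relation of each receptor to each marker list was measured by correlating the deviations of the 14 libraries from their group means. The list value was the mean of log2(scaled TPM + 0.5) over all its markers, and exact permutation within the 4 groups (27648 rearrangements, two-sided) gave p-values adjusted over 96 relations. Of these, 6 had an adjusted p under 0.05 by Pearson's r and none by Spearman's rho, whose smallest adjusted p was 0.0819. The points share a library, and with it its depth and dissection.

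Sstr2 followed the habenular markers, with r = 0.96 (exact permutation p = 0.00148, adjusted 0.0356) and rho = 0.86 (p = 0.00289). Without control cocaine replicates 1 and 4, the 2 libraries farthest out, r was 0.88. These libraries held a habenular sum of 172 and 8.35 scaled TPM beside 5.26 and 0.855 for Sstr2, and the other 12 libraries sums of 9.36 to 76.4. Sstr2 also followed the ependymal markers (r = 0.93, exact permutation p = 0.000181, adjusted 0.0174, rho = 0.82, p = 0.00376), with r = 0.87 without cKO saline replicate 1 and control cocaine replicate 4. Tacr1 had r = 0.88 with the habenular markers (exact permutation p = 0.0127, adjusted 0.133, rho = 0.65, p = 0.0275), but 0.53 without control cocaine replicates 1 and 4, so that this relation rests on them.

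Sstr1 rose and Npy1r fell with the hypothalamic markers. For Sstr1 r was 0.80 (exact permutation p = 0.00188, adjusted 0.0361) and rho 0.81 (p = 0.00152), with r = 0.81 without control cocaine replicates 1 and 3. For Npy1r r was -0.87 (exact permutation p = 0.00268, adjusted 0.0428) and rho -0.89 (p = 0.00427), with r = -0.86 without the same pair. Crhr1 had r = 0.81 (exact permutation p = 0.00134, adjusted 0.0356, rho = 0.78, p = 0.00521) and 0.76 without them. It also had r = 0.71 with the microglial markers (exact permutation p = 0.00094, adjusted 0.0356, rho = 0.71, p = 0.00203), and 0.70 without cKO saline replicate 2 and cKO cocaine replicate 2. Galr1 had r = 0.27 with the hypothalamic and -0.33 with the habenular markers within groups, with no adjusted p under 0.05 for any list.

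**Figure D4:**
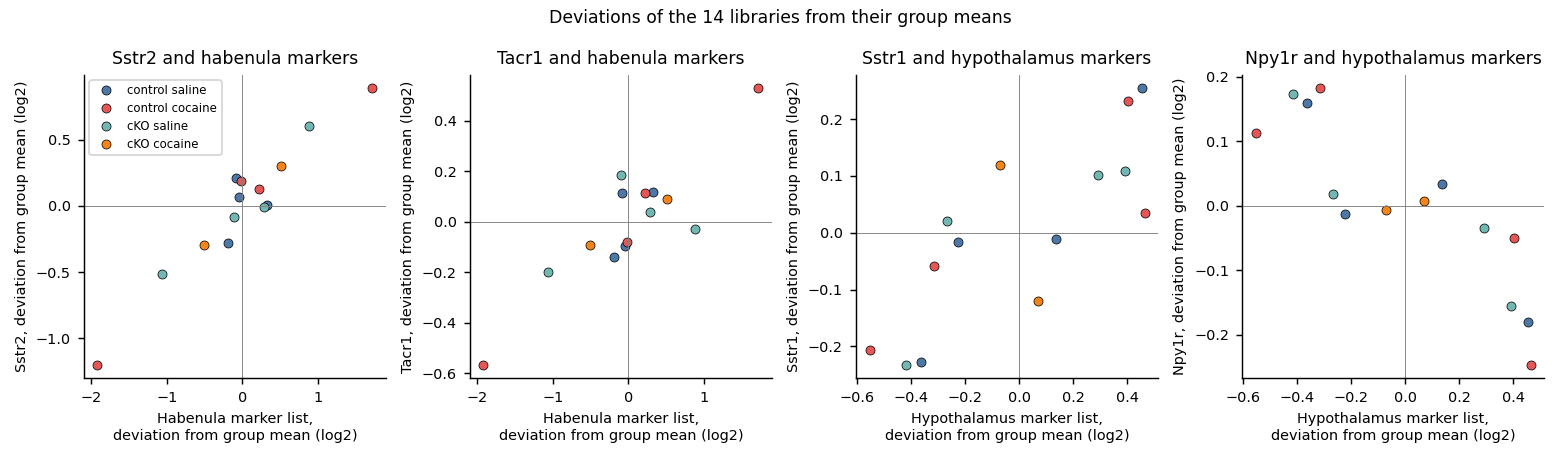
Deviation of 4 receptors (vertical axes, log2) against that of a marker list (horizontal axes, log2) from their group means in 14 libraries coloured by group. Sstr2 rises with the habenular list (r = 0.96), Tacr1 does so mainly through 2 control cocaine libraries (r = 0.88), and Sstr1 rises (0.80) and Npy1r falls (-0.87) with the hypothalamic list.

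Among the 28 pairs of tested receptors none had an adjusted p under 0.05 by Pearson's r. The 2 orexin receptors came nearest, with r = 0.80 (exact permutation p = 0.00268, adjusted over 28 pairs 0.0749) and rho = 0.84 (p = 0.00203, adjusted 0.038), and r = 0.76 without cKO saline replicate 3 and control cocaine replicate 2. Npy1r and Sstr1 went in opposite directions (r = -0.74, exact permutation p = 0.0116, adjusted 0.162, rho = -0.80, p = 0.00271, adjusted 0.038), with r = -0.62 without cKO saline replicate 4 and control saline replicate 2. Sstr2 and Tacr1, whose promoter stretches were shown, had the largest r, 0.85 (exact permutation p = 0.0194, adjusted 0.171, rho = 0.61, p = 0.0398), which was 0.44 without control cocaine replicates 1 and 4.

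By the same within-group deviations over 14 libraries, the tested genes most like Sstr2 were Nrp2 (r = 0.98), Rgmb and Rtn4rl2 (0.97 each). Those most like Sstr1 were Magel2 (0.92), the tachykinin receptor gene Tacr3 and Irs4 (0.90 each), and those most like Tacr1 were Mtus2 (0.94), Alyref and the choline transporter gene Slc5a7 (0.93 each). Galr1 was nearest to Ric8b and Ptpru (0.91 each) and Rab3b (0.89). Hcrtr2 was nearest to Crhbp, which encodes a corticotropin-releasing factor binding protein (0.91), and to Tor1a and 4930447M23Rik (0.87 each). Hcrtr1 was nearest to Resp18 (0.94), Wnk3 (0.93) and Tspyl2 (0.92), Npy1r to Dgki (0.94), Cttnbp2 (0.92) and Celf1 (0.89), and Crhr1 to Lonp2 (0.92), Psmb2 (0.91) and Mea1 (0.90). Each gene was picked as the highest of all tested genes, and these values are descriptions.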

How the data were processed

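Per the labels and the study's methods, RNA was depleted of ribosomal RNA, sequenced as stranded paired-end reads, mapped to GRCm38 with STAR 2.5.3a, and quantified with salmon and tximport. The authors deposited 1 table of TPM per library, in which the genes listed sum to 312659 to 377401 TPM. In 2 deposited tables, whose unit was recorded as other, TPM were written with a decimal comma, read here as a point. TPM keeps no depth, so the counting error behind each value is unknown.

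TPM were divided by unweighted TMM factors (trims of 30% and 5%), 0.5 was added and log2 taken. Genes that reached 1 TPM in 3 or more libraries were fitted in limma 3.58.1 (R 4.3.3), with 1 mean per group and the variance trended on intensity. Groups and replicate numbers came from sample titles. Receptors below the filter were compared by exact permutation tests in R. Correlations within groups were tested by exact permutation in Python 3.11.15 with numpy 2.4.6. Gene models are GENCODE M21 and promoter windows RefSeq. The procedure was tested on simulated data. Receptors, gene lists and markers were chosen with earlier results of these data known. All members were named, with the 3 genes nearest to each. Alternatives covered scaling, pseudocount, filters, libraries, trend, replicate block, genotype source, fold minimum and each library left out.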

Additional observations from a re-analysis of the deposited data

Results flagged for a closer look

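The cocaine difference of Galr1 was 0.64 in the libraries labelled cKO and -0.68 in those labelled control. The gap between these opposite signs was 1.32 on the log2 scale (limma interaction, adjusted p = 0.0278). All 4 libraries labelled control cocaine lay below all 4 control saline libraries, and both libraries labelled cKO cocaine lay above all 4 cKO saline libraries. Maged1 went against the genotype label in all 6 cocaine libraries, so the signs, sizes and calls hold only for the labels as given. The mean of Galr1 in labelled cKO cocaine was 2.50 beside 2.45 in control saline. In labelled control cocaine it was 1.35 beside 1.45 in cKO saline. The call was lost when any 1 of 5 libraries was left out (control saline replicate 2 or 4, cKO cocaine replicate 1 or 2, or cKO saline replicate 1, limma adjusted p = 0.0533 to 0.0929). It was lost also with TPM as deposited (0.0754), a replicate block (0.0601), the genotype tags (0.786) and agreeing labels only (0.242). Control saline replicate 2 stood apart from the other 3 control saline libraries for both receptors of lowest level. Trhr was at 0.999 scaled TPM there and at 0.578 to 0.642 in the others, a gap of 0.849 of the group's range. Oxtr was at 1.01 there and at 0.617 to 0.682 in the others, a gap of 0.832 of the range. Both exceeded Dixon's 95% critical value for 4 samples, 30 groups were examined, and chance alone exceeds it in about 1 of 20.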

How the results depend on the processing

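Galr1 was the 1 receptor called for cocaine in the control-labelled libraries, for cocaine in the cKO-labelled libraries and for the interaction under median-of-ratios scaling, quantile scaling, a pseudocount of 1, no filter and no intensity trend. With TPM as deposited 3 receptors were called in the control (Galr1, Hcrtr2 and Sstr1), 0 in the cKO and 0 in the interaction, and the median of all genes shifted by -0.335 in the control and -0.346 in the cKO, with 53 genes called higher and 2372 lower in the control against 192 and 223. In the control 2 receptors, Galr1 and Sstr1, were called with a pseudocount of 0.1 or no fold change minimum. No receptor has a mean of 5 TPM, so that this filter left 0 tested and 0 called in each. The fit of only the groups compared called 0 in the cKO. The genotype tags gave 0, 0 and 0 calls in control, cKO and interaction, and agreeing labels gave 1 in the control (Sstr1), 0 in the cKO and 0 in the interaction. Leaving out single libraries gave 1 to 3 calls in the control (3 without control cocaine replicate 2, 2 without control saline replicate 4), 0 to 1 in the cKO and 0 to 1 in the interaction. Neither genotype comparison called a receptor under any alternative. The cause of these changes was not tested. A single library that remains in a group is assumed to vary like the other groups.

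Replicate numbers come from the titles and the mice are different animals. Deviations of same-numbered libraries had a mean correlation of -0.0138 over 18 pairs, against 0.00458 over 54 other pairs, so that the numbers were not taken to pair libraries. With a replicate block 0 receptors were called in the interaction (Galr1 1.29, adjusted p = 0.0601), the Sstr1 value in the cKO was -0.03, and the control and cKO calls of Galr1 held.

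Of the refitted log2 fold changes of single receptors 916 kept their direction and call, 7 gained and 19 lost a call, and 58 changed sign, of which 0 were called in either fit and 48 had a value under 0.2 in size. With TPM as deposited these were Hcrtr1 (-0.21), Npy1r (-0.18), Crhr1 (-0.09) and Tacr1 (-0.20) in the control, Hcrtr1 (-0.15), Hcrtr2 (-0.17), Npy1r (-0.34) and Sstr1 (-0.28) in the cKO, and Hcrtr1 and Crhr1 (0.01 each) between genotypes after cocaine. Hcrtr1 was at 0.05 after saline and -0.15 in the interaction with quantile scaling, and at 0 after cocaine with a pseudocount of 0.1. With the genotype tags the control values were -0.04 for Crhr1 and 0.21 for Sstr2, and the cKO values -0.18 for Hcrtr2, -0.04 for Npy1r and 0.17 for Crhr1. The tags gave 0 for Hcrtr1, 0.29 for Hcrtr2, -0.22 for Crhr1, 0.12 for Sstr2 and 0.07 for Tacr1 after saline, and -0.01 for Hcrtr1, 0.21 for Crhr1, -0.21 for Sstr2 and -0.19 for Tacr1 in the interaction. With agreeing labels Hcrtr2 and Npy1r (-0.09 each) and Crhr1 (0.02) changed sign in the cKO, and Hcrtr2 (0.05) after saline. Leaving out single libraries gave -0.16 to 0.01 for Crhr1, -0.02 to 0.21 for Hcrtr1, -0.04 to 0.07 for Npy1r and -0.07 to 0.17 for Sstr1 in the cKO. It gave -0.14 to 0.20 for Hcrtr1, -0.48 to 0.22 for Sstr2 and -0.08 to 0.28 for Tacr1 in the control, and -0.25 to 0.08 for Hcrtr1 after saline. After cocaine it gave -0.09 to 0.07 for Crhr1, -0.11 to 0.12 for Hcrtr1, -0.49 to 0.22 for Sstr2 and -0.31 to 0.06 for Tacr1, and in the interaction -0.09 to 0.24 for Hcrtr1. TPM keeps no depth, so counting error at these low levels cannot be separated from the spread between mice.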
